A study of Danio rerio with 12 samples.

Results

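Macrophages of the gill were compared with macrophages of the intestine in adult zebrafish. The fish were transgenic for sox17:CreERT2 and also for mpeg1:loxP-DsRedx-loxP-GFP. In this line a Cre recombinase that needs tamoxifen is driven by sox17, an endoderm transcription factor gene, and the macrophage promoter mpeg1 drives a red protein (DsRedx) that Cre exchanges for GFP. DsRedx cells are therefore mpeg1-expressing cells that had not recombined, which the series description calls macrophages. GFP cells are mpeg1-expressing cells whose ancestry included sox17 expression, called metaphocytes there. The 4 groups were gill DsRedx, intestine DsRedx, gill GFP and intestine GFP cells, all of 1 genotype and all adult, with n = 3 libraries in each. Cells were taken by fluorescence-activated sorting at 30 to 50 per sample and amplified by SMART-seq2, a full-length cDNA method for very few cells, and read as pairs of 150 bases. The labels state neither a tamoxifen treatment nor whether the 3 libraries of a group came from different fish, so p-values measure the spread between these samples, which may be technical. DsRedx cells can also include cells of the sox17 lineage in which Cre did not act.

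The comparison rested on the genes whose level in the higher DsRedx group was a mean of 20 CPM (counts scaled to the size of the library) or more. In each of the 3 libraries of that group the level also had to exceed 5% of the mean of the GFP cells of the same tissue. The second condition sets aside low levels that DsRedx libraries share with the GFP cells sorted from the same organ. Of 32520 genes in the table, 4118 were kept, 2071 of them with the higher mean in gill and 2047 with the higher mean in intestine. A further 2144 genes of the 6262 at 20 CPM or more were set aside by the share of the GFP mean, 1332 higher in gill and 812 higher in intestine. Of the 4118 kept genes, 3945 passed the filter on low counts and were tested, and 173 did not. Because a gene can pass that filter through its higher group alone, counts among the tested genes are descriptions of the list.

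Tissue macrophages are phagocytes that share a core program set by the transcription factor PU.1 and by signaling through the CSF1 receptor, and they take on further features in each organ. The gill of a fish is a respiratory and ion-transporting surface in direct contact with water, and it holds lymphoid tissue. Intestinal macrophages live beneath an epithelium that absorbs lipid and retinoids and that borders on the microbiota. In bulk samples such as these, fewer cells of a type and less RNA per cell cannot be told apart.

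The 6 DsRedx libraries held 5895669 to 8502294 counts in gill and 7942409 to 9701403 counts in intestine. Genes with a count numbered 9506 to 10224 in the gill libraries and 11312 to 11767 in the intestine libraries, so that this number and the tissue cannot be told apart. Pearson correlations of log2 CPM across genes were 0.562 to 0.583 within gill, 0.617 to 0.657 within intestine and 0.532 to 0.587 between the tissues, and genes are not independent replicates. The common biological coefficient of variation of the fit was 1.42, a wide spread between replicates. Intervals and floors given below for genes that are near absent from 1 tissue cover counting error only, since the reads carried no molecular identifiers.

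Few genes were called between gill and intestine macrophages beyond that spread, and 1 of the called genes was on the list of macrophage and leukocyte identity genes. Of 10666 genes in edgeR's quasi-likelihood test, with p-values adjusted after Benjamini and Hochberg, 81 were called at an adjusted p under 0.05, which is 0.759% of the genes tested. The 24 genes higher in gill were 0.225% and the 57 genes higher in intestine 0.534% of those tested. In the same test 2255 genes had an unadjusted p under 0.05, so the small number of calls does not show that few genes differed. Of the 81 genes, 43 were kept genes, 10 higher in gill and 33 higher in intestine, and 18 had been set aside by the share of the GFP mean. The remaining 20 lay under 20 CPM. Unless another fit is named, every adjusted p below comes from the same fit. The 3 gill values and the 3 intestine values did not overlap for any of the 43 genes. Over all genes tested the values did not overlap for 719 genes higher in gill, which is 6.74%, and for 1300 genes higher in intestine, which is 12.2%.

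The number of calls depended on the fit. DESeq2 called 1639 of the same 10666 genes, and 558 of these were kept genes. With the number of genes with a count as a covariate, 1 of the kept genes was called, the water channel gene AQP3, and a fit of the 6 DsRedx libraries alone called 14 kept genes, or 0 over the same 10666 genes (451 at an unadjusted p under 0.05). When each of the 12 libraries was left out in turn, 16 to 44 kept genes were called, with the fewest without intestine GFP replicate 3, and 8 of the 43 genes were called in every one of those 12 fits. These 8 were AQP3 and pleca, higher in gill, and MYH9, DEPTOR, STOML3, ABCB4, si:dkey-201l21.2 and si:ch73-122k23.1, higher in intestine.

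**Figure D1:**
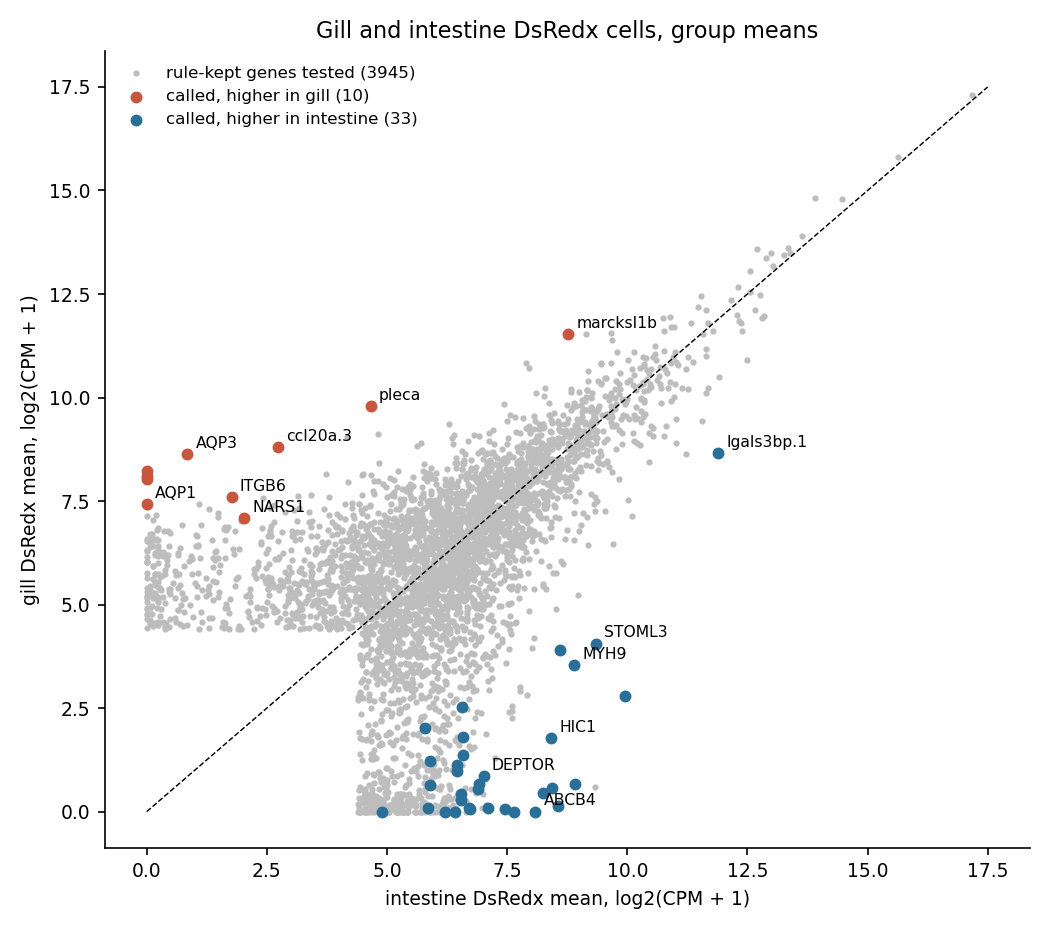
Mean level of each kept and tested gene in intestine (horizontal axis) and gill (vertical axis) DsRedx cells, as log2(CPM + 1), over n = 3 libraries each. Each grey point is 1 gene, the 10 genes called higher in gill are red, the 33 called higher in intestine are blue, and the dashed line marks equal levels. Among the called genes, marcksl1b and lgals3bp.1 are the ones with a high level in both tissues, and most others lie near 0 on 1 axis.

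AQP3, AQP1, pleca and ITGB6 were 4 of the 10 kept genes called higher in gill. AQP3 (ENSDARG00000003808, 1 of 2 genes with that symbol) encodes a channel for water and glycerol. It was read at 375, 80.3 and 735 CPM in gill DsRedx 1, 2 and 3 and at 1.24, 0.664 and 0.494 CPM in the intestine libraries. All 3 gill libraries were high and every intestine library was near 1 CPM, and the difference was 488-fold (log2 fold change 8.93, SE 1.21, adjusted p = 0.0006116). AQP1 (ENSDARG00000023713, 1 of 2 genes with that symbol) encodes a water channel known from red blood cells and vessel walls. It stood at 59.85, 355 and 101 CPM in the gill libraries and had no count in the intestine libraries, which makes it at least 1292-fold higher in gill when 3 counts are put in place of the absent ones (adjusted p = 0.01658). The call was made in 10 of the 12 fits that left out 1 library. The hemoglobin genes hbaa1, hbaa2, hbae1.1 and hbae3 had no count in any DsRedx library, and summed erythrocyte and thrombocyte markers overlapped between the tissues, at 14.72 to 766.9 CPM in gill and 133.2 to 482.5 CPM in intestine. GFP cells of the same tissues carried AQP3 at 268 CPM in gill and 82.95 CPM in intestine, and AQP1 at 0.6835 CPM in gill and 0 CPM in intestine.

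The gene pleca encodes a plectin, a large linker of intermediate filaments to junctions and the membrane. It reached 237, 1147 and 1273 CPM in gill and 47.8, 12.9 and 12.1 CPM in intestine, with gill DsRedx 1 the lowest of the gill libraries and still above every intestine library. The difference was 36.5-fold (log2 fold change 5.19, SE 0.8, adjusted p = 0.002709). ITGB6 encodes an integrin beta chain that pairs with alpha v and that in mammals is typical of epithelium and activates latent TGF-beta. Its levels were 287, 149.6 and 141 CPM in gill and 1.93, 1.195 and 4.08 CPM in intestine, 79.5-fold apart (adjusted p = 0.03446), and it was called in 5 of the 12 fits with 1 library left out. GFP cells carried pleca at 975 CPM in gill and 912 CPM in intestine, and ITGB6 at 49.5 CPM in gill and 131 CPM in intestine. Summed markers of metaphocytes, 10 genes fixed as a list, were higher in gill DsRedx (489.3 to 1755 CPM) than in intestine DsRedx libraries (129 to 282.8 CPM), against GFP means of 39230 and 8735 CPM. Most of the gill sum was grna.2, a granulin gene, at 370.2, 1354 and 255.4 CPM in gill and 80.49, 36.37 and 161.1 CPM in intestine. Of 7 tested list members, 2 were called higher in gill, grna.2 and the claudin gene cldn3c, and 1 was called higher in intestine. The gene cldn3c stood at 36.52, 44.17 and 33.95 CPM in gill and 4.273, 4.381 and 4.201 CPM in intestine. The keratin gene krt4, called higher in intestine, was at most 0.552 CPM in gill and 16.81 to 19.78 CPM in intestine. The list members epcam and cdh1 overlapped between the tissues. Summed markers of gill epithelium and ionocytes spanned 2181 to 3523 CPM in gill and 2001 to 2441 CPM in intestine. The part of either marker group in these 4 differences was not tested.

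The chemokine gene ccl20a.3, a relative of mammalian CCL20, whose product attracts lymphocytes and dendritic cells, was higher in gill as well. It was read at 618, 540 and 182 CPM in gill and 0.138, 12.9 and 3.83 CPM in intestine, where intestine DsRedx 1 held almost none and intestine DsRedx 2 the most. The 79.3-fold difference (log2 fold change 6.31, SE 1.25, adjusted p = 0.02257) was called in 11 of the 12 fits that left out 1 library. GFP cells differed in the same direction, at 727 CPM in gill and 16.65 CPM in intestine (adjusted p = 0.01706). By contrast with these near-absent genes, marcksl1b, which encodes an actin-binding substrate of protein kinase C, was abundant in both tissues. Its levels were 4037, 2797 and 2005 CPM in gill and 153, 512 and 644 CPM in intestine. The lowest gill library thus lay above the highest intestine library, and the difference was 6.755-fold (log2 fold change 2.76, SE 0.57, adjusted p = 0.02789). NARS1, the gene of the cytoplasmic asparaginyl-tRNA synthetase, stood at 292.5, 99.5 and 14.9 CPM in gill and 5.93, 1.46 and 1.85 CPM in intestine (adjusted p = 0.04952) and was called in 1 of those 12 fits.

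Each of the other 3 genes higher in gill rested mainly on 1 library. Osteopontin (spp1), a secreted phosphoprotein of bone and of tissue macrophages, was read at 1.72, 2.09 and 884 CPM in gill. The sialic acid-binding lectin gene siglec15l stood at 1.53, 816.5 and 10.5 CPM, and chl1a, an adhesion gene of the L1 family known from neurons, at 0.956, 771 and 16 CPM. None of these had a count in an intestine DsRedx library, and their adjusted p-values were 0.03446, 0.02931 and 0.02535. In each the lowest gill library was far below the highest, and the high library was gill DsRedx 3 for spp1 and gill DsRedx 2 for the other two.

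**Figure D2:**
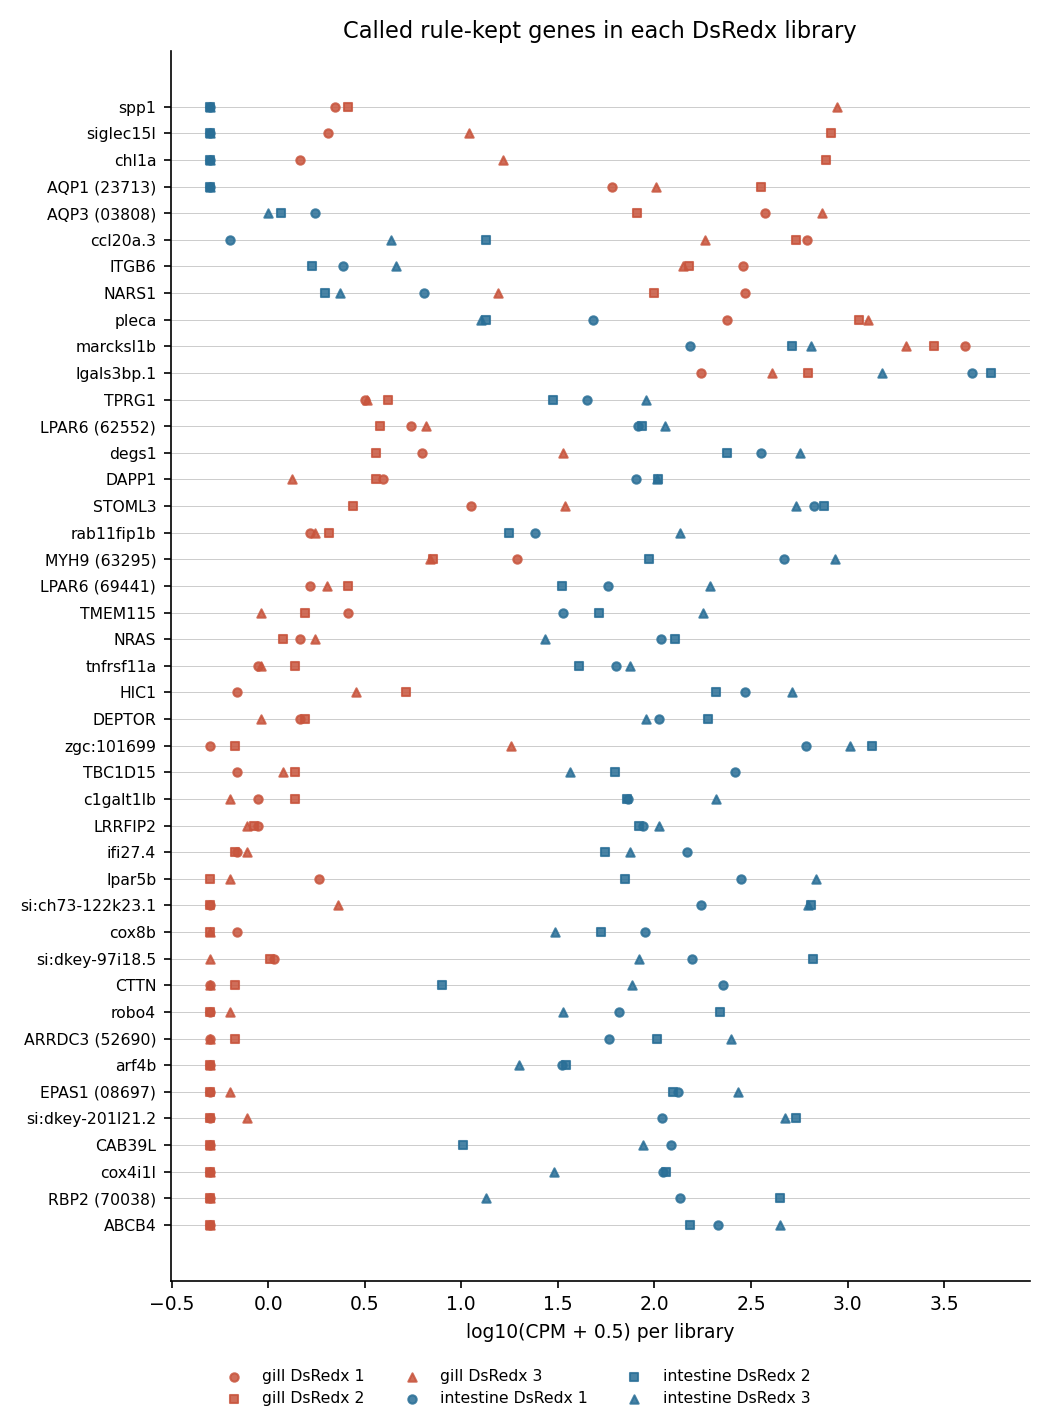
Level of the 43 called genes in each DsRedx library as log10(CPM + 0.5), 1 gene per line, with gill in red and intestine in blue and the marker shape giving the replicate; 5 digits in brackets end the gene identifier where a symbol is shared. Red and blue points do not overlap on any line, and spp1, siglec15l and chl1a each have 1 red point far to the right of the other two.

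The genes higher in intestine that kept their call in every fit with 1 library left out are described first. MYH9 (ENSDARG00000063295, 1 of 2 genes with that symbol) encodes a non-muscle myosin heavy chain. It was read at 18.9, 6.61 and 6.35 CPM in gill and 469.6, 93.1 and 860.1 CPM in intestine, 44.6-fold apart (log2 fold change -5.48, SE 0.91, adjusted p = 0.004824). Intestine DsRedx 2 was the lowest intestine library and still lay far above the gill libraries. DEPTOR, the gene of an inhibitor of the growth kinase mTOR, stood at 0.956, 1.04 and 0.414 CPM in gill and 105, 188.5 and 89.7 CPM in intestine, a 157-fold difference (log2 fold change -7.29, SE 1.3, adjusted p = 0.009938). STOML3 encodes a stomatin-like membrane protein known in mice from mechanosensation. Its levels were 10.7, 2.26 and 33.95 CPM in gill and 667, 750.3 and 539.8 CPM in intestine (41.6-fold, log2 fold change -5.38, SE 0.96, adjusted p = 0.009938). The 3 intestine libraries were close to each other for STOML3, and the gill libraries were spread over a wider range.

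ABCB4 encodes a transporter of the multidrug-resistance family, which in mammals exports phospholipid. No gill DsRedx library had a count, and the intestine libraries held 213, 152 and 447.5 CPM, at least 1676-fold more by the same bound of 3 counts for the group (adjusted p = 0.01658). The genes si:dkey-201l21.2 and si:ch73-122k23.1 carry clone names and no role is given for them here. The first was read at 0, 0 and 0.276 CPM in gill and 108.5, 539.7 and 473 CPM in intestine (adjusted p = 0.002709). With 2 counts in gill, its ratio was 3456 with a 95% counting interval of 956.5 to 28540. The second stood at 0, 0 and 1.79 CPM in gill and 174, 644 and 623 CPM in intestine (adjusted p = 0.01144). For both, intestine DsRedx 1 was the lowest intestine library.

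EPAS1 and RBP2, the called genes of the oxygen list (1 of 33 tested) and the retinoid list (1 of 21 tested), were higher in intestine. EPAS1 (ENSDARG00000008697, 1 of 2 genes with that symbol) encodes the hypoxia-inducible factor HIF-2alpha. Its levels were 0, 0 and 0.138 CPM in gill, which is 1 count in all, and 132, 124.5 and 270.3 CPM in intestine (adjusted p = 0.0141). The ratio was 3251 with a 95% counting interval of 583 to 128500, and the gene was called in 11 of the 12 fits that left out 1 library. RBP2 (ENSDARG00000070038, 1 of 2 genes with that symbol) encodes a cellular retinol-binding protein best known from enterocytes. It had no count in gill and stood at 134.5, 447 and 12.85 CPM in intestine, at least 1180-fold more (adjusted p = 0.02849), although intestine DsRedx 3 held only 2.88% of the level in intestine DsRedx 2. GFP cells carried RBP2 at 0 CPM in gill and 58.81 CPM in intestine. Enterocyte and goblet cell markers, a list of 43 genes that holds RBP2 itself, were also higher in intestine. Their sum was 2.294 to 493.7 CPM in gill and 651.6 to 2003 CPM in intestine, and the part of such RNA in the RBP2 difference was not tested. Most of that sum was selenop, a secreted selenoprotein gene, at 919.4, 1314 and 500.8 CPM in intestine and 1.53, 492.8 and 290.5 CPM in gill. The enterocyte fatty acid-binding protein gene FABP2 stood at 4.201 to 42.08 CPM in intestine and had no count in gill.

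The desaturase gene degs1, which makes ceramide from its saturated precursor, was read at 5.74, 3.13 and 33.1 CPM in gill and 354, 238 and 564 CPM in intestine, 27.45-fold apart (log2 fold change -4.78, SE 0.97, adjusted p = 0.02535). Subunits of cytochrome c oxidase, the last complex of the respiratory chain, were called together. No count of cox4i1l was found in gill, against 110.3, 114 and 29.8 CPM in intestine (adjusted p = 0.02535). GFP cells carried cox4i1l at 0 CPM in gill and 80.08 CPM in intestine. For cox8b the values were 0.191, 0 and 0 CPM in gill and 88.6, 52.6 and 29.9 CPM in intestine (adjusted p = 0.04952). Both cox genes lost their call in at least some of the fits that left out 1 library, with cox4i1l called in 6 and cox8b in 2 of 12.

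Receptors for lysophosphatidic acid, a signaling lipid, were represented by 3 called genes, all higher in intestine. LPAR6 is a symbol of 2 genes. The first (ENSDARG00000069441) stood at 1.15, 2.09 and 1.52 CPM in gill and 57.2, 32.8 and 192.5 CPM in intestine, 58.9-fold apart (adjusted p = 0.02859). For the second (ENSDARG00000062552) the values were 4.97, 3.3 and 6.07 CPM in gill and 82.1, 85.2 and 113 CPM in intestine, 19.45-fold apart (adjusted p = 0.04498), with a tight spread in each tissue. The related receptor gene lpar5b stood at 1.34, 0 and 0.138 CPM in gill and 279, 69.6 and 686 CPM in intestine (log2 fold change -9.45, SE 2.07, adjusted p = 0.03446). These 3 genes were called in 5, 0 and 7 of the 12 fits with 1 library left out. The sources used here do not say how reads shared by related genes were counted.

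A further group of calls higher in intestine concerned signaling and immune receptors. DAPP1, the gene of a phosphoinositide-binding adaptor of lymphocytes, was read at 3.44, 3.13 and 0.828 CPM in gill and 79.9, 104 and 102 CPM in intestine (log2 fold change -5.27, SE 1.03, adjusted p = 0.02044). Its intestine values were nearly level across libraries. The gene of RANK, tnfrsf11a, the receptor that drives osteoclast formation, stood at 0.382, 0.8695 and 0.414 CPM in gill and 62.7, 39.96 and 74 CPM in intestine (log2 fold change -6.69, SE 1.53, adjusted p = 0.04285) but was called in none of the 12 fits that left out 1 library, whose adjusted p reached 0.114. NRAS, a small GTPase of growth factor signaling, was read at 0.956, 0.696 and 1.24 CPM and 108, 127 and 26.7 CPM in the same order of tissues (adjusted p = 0.03446). The guidance receptor gene robo4, best known from vessel endothelium, had 1 count in gill and stood at 64.9, 217 and 33 CPM in intestine (adjusted p = 0.04952). With 1 library left out, DAPP1, NRAS and robo4 were called in 8, 2 and 3 of the 12 fits. Summed endothelial and stromal markers were 12.62 to 415.4 CPM in gill and 227.8 to 284.9 CPM in intestine, overlapping between the tissues. In that list TIE1 stood at 0.4135, 137 and 0 CPM and FLI1 at 0.1378, 0.3982 and 173.5 CPM in intestine, with no count of either in gill. The list member cdh5 had no count in any DsRedx library. In gill DsRedx 3, COL1A2 stood at 144.6 CPM and TAGLN (ENSDARG00000033466) at 149.6 CPM. The part of such RNA in the robo4 difference was not tested.

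The transcriptional repressor gene HIC1 was read at 0.191, 4.695 and 2.35 CPM in gill and 294, 207 and 514 CPM in intestine, 139-fold apart (log2 fold change -7.12, SE 1.47, adjusted p = 0.02931). Further called genes were as follows. The cortactin gene CTTN, a regulator of branched actin, stood at 0, 0.174 and 0 CPM in gill and 226, 7.43 and 75.6 CPM in intestine (adjusted p = 0.02931), so that intestine DsRedx 2 held 3.28% of intestine DsRedx 1. GFP cells carried CTTN at 0 CPM in gill and 97.82 CPM in intestine. ARRDC3 (ENSDARG00000052690), an arrestin-domain gene, had 1 count in gill against 57.9, 103 and 248 CPM in intestine (adjusted p = 0.03606). The recycling-endosome gene rab11fip1b was read at 1.15, 1.565 and 1.24 CPM in gill and 23.6, 17.1 and 136 CPM in intestine (adjusted p = 0.0361). TBC1D15, a regulator of the late-endosome GTPase Rab7, stood at 0.191, 0.8695 and 0.69 CPM and 261, 62.3 and 35.8 CPM (adjusted p = 0.03776). The Golgi GTPase gene arf4b had no count in gill and 32.8, 34.25 and 19.4 CPM in intestine (adjusted p = 0.04952). Of the 12 fits that left out 1 library, 5 called HIC1, 6 called CTTN and 5 called ARRDC3. In the same fits rab11fip1b, TBC1D15 and arf4b were called in 3, 4 and 3.

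The other kept genes called higher in intestine were CAB39L, LRRFIP2, TMEM115, TPRG1, c1galt1lb, zgc:101699, si:dkey-97i18.5 and ifi27.4. CAB39L, a scaffold of the LKB1 kinase complex, had no count in gill and 122, 9.69 and 86.4 CPM in intestine. LRRFIP2 was read at 0.382, 0.348 and 0.276 CPM in gill and 86.8, 82.7 and 105.5 CPM in intestine, with the intestine libraries close together (adjusted p = 0.03446). The clone-named gene zgc:101699 stood at 606, 1336 and 1027 CPM in intestine and 0, 0.174 and 17.7 CPM in gill (log2 fold change -7.37, SE 1.59, adjusted p = 0.03446). The interferon-inducible gene ifi27.4 stood at 0.191, 0.174 and 0.276 CPM in gill and 147, 54.8 and 74.3 CPM in intestine (adjusted p = 0.04952). The remaining 4 genes of this group had adjusted p-values from 0.03127 to 0.04952. Of the 12 fits that left out 1 library, CAB39L, LRRFIP2, zgc:101699 and ifi27.4 were called in 4, 3, 9 and 3. In the same fits si:dkey-97i18.5 was called in 7, c1galt1lb in 1, and TMEM115 and TPRG1 in 0.

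Macrophage identity genes were read in both tissues, though some, such as ccl34b.1, were near absent from gill DsRedx 1. The gene csf1ra was low in every gill library, at 0, 11.5 and 1.52 CPM in gill DsRedx 1, 2 and 3. The called gene on the list of macrophage and leukocyte identity genes was lgals3bp.1. Of 39 tested genes of macrophage and leukocyte identity, 36 were kept genes, 1 was called and the median log2 fold change was -0.70, against -0.16 over all genes tested. In edgeR's quasi-likelihood test 6 of the 39 had an unadjusted p under 0.05, all higher in intestine. Over all 10666 genes tested, 801 higher in gill and 1454 higher in intestine reached that level. The galectin-3-binding protein gene lgals3bp.1 was read at 174, 625 and 405 CPM in gill and 4391, 5508 and 1513 CPM in intestine. Every intestine library exceeded every gill library, by 9.48-fold in the fit (log2 fold change -3.24, SE 0.63, adjusted p = 0.01949), and the call was kept in 9 of the 12 fits that left out 1 library. Intestine DsRedx 3 was the lowest of the intestine libraries.

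MPEG1 (ENSDARG00000055290, 1 of 3 genes with that symbol), the perforin-like gene whose promoter drives the reporter, stood at 555, 1409 and 2651 CPM in gill and 1384, 2094 and 1967 CPM in intestine, with overlapping libraries (log2 fold change -0.24, SE 0.55, adjusted p = 0.8711). The paralog ENSDARG00000043093 was read at 32.7, 251 and 68.9 CPM in gill and 27.3, 39.69 and 1.85 CPM in intestine (adjusted p = 0.4434), overlapping as well. SPI1 (ENSDARG00000000767), the gene of PU.1, stood at 105, 1052 and 478 CPM in gill and 492, 309 and 74.3 CPM in intestine (log2 fold change 0.90, SE 0.87, adjusted p = 0.6208). IRF8, a transcription factor of macrophage development, was at 109, 209 and 316 CPM and 242, 71.7 and 348 CPM in gill and intestine (log2 fold change -0.06, SE 1.12, adjusted p = 0.9889). These tests do not show that the levels were equal, because their standard errors of 0.55 to 1.65 log2 units leave room for sizeable differences in either direction.

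The CSF1 receptor gene csf1ra showed the widest gap among 12 macrophage and antigen presentation genes plotted by library, none of which was called. It was read at 0, 11.5 and 1.52 CPM in gill and 98, 257.5 and 197 CPM in intestine (log2 fold change -5.41, SE 1.8, adjusted p = 0.1532). The libraries did not overlap, and gill DsRedx 1 had no count of it. None of the 12 fits that left out 1 library called csf1ra. Of 13 other settings 4 called csf1ra, among them DESeq2 (adjusted p = 0.00526) and limma on log2(TPM + 1) (adjusted p = 0.0186). Its duplicate csf1rb had too few counts to be tested, and of its counts 50 were in gill DsRedx 1, none in gill DsRedx 2, 3 in gill DsRedx 3 and at most 2 in an intestine library. The scavenger receptor gene marco overlapped between tissues at 244, 383 and 142 and 76.9, 771 and 212 CPM (adjusted p = 0.8461). The transcription factor genes mafbb and BHLHE40, both named after their values were seen, were not called. For mafbb the values were 18.55, 279 and 251 CPM in gill and 1058, 697 and 1357 CPM in intestine (adjusted p = 0.1532), and for BHLHE40 they were 335, 577 and 518 and 1636, 1329 and 3201 CPM (adjusted p = 0.1708). For neither gene did the gill and intestine libraries overlap.

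Complement and antigen presentation genes were expressed in both groups, and no gene of either list was called. C1q, the recognition molecule of the classical complement pathway, is assembled from 3 chains. The chain gene c1qa stood at 3.06, 2.09 and 176 CPM in gill and 418, 518 and 56 CPM in intestine (adjusted p = 0.3253), c1qb overlapped widely (adjusted p = 0.9252), and c1qc was read at 228, 400.1 and 327 CPM and 672, 1286 and 414 CPM without overlap (adjusted p = 0.2984). In gill DsRedx 1 both c1qa and c1qb were low. The invariant chain gene cd74a, which guides MHC class II molecules, was read at 26520, 28250 and 32340 CPM in gill and 16920, 16590 and 12240 CPM in intestine. All gill libraries were above all intestine libraries, and the difference of 1.9-fold did not pass the threshold (log2 fold change 0.93, SE 0.29, adjusted p = 0.131). The class II chain gene mhc2dab overlapped at 6173, 14320 and 16420 and 6969, 10230 and 2614 CPM (adjusted p = 0.2954). LGMN, a lysosomal protease that processes antigens, stood at 1989, 2742 and 1034 CPM in gill and 5621, 7717 and 3853 CPM in intestine without overlap (log2 fold change -1.58, SE 0.51, adjusted p = 0.141).

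**Figure D3:**
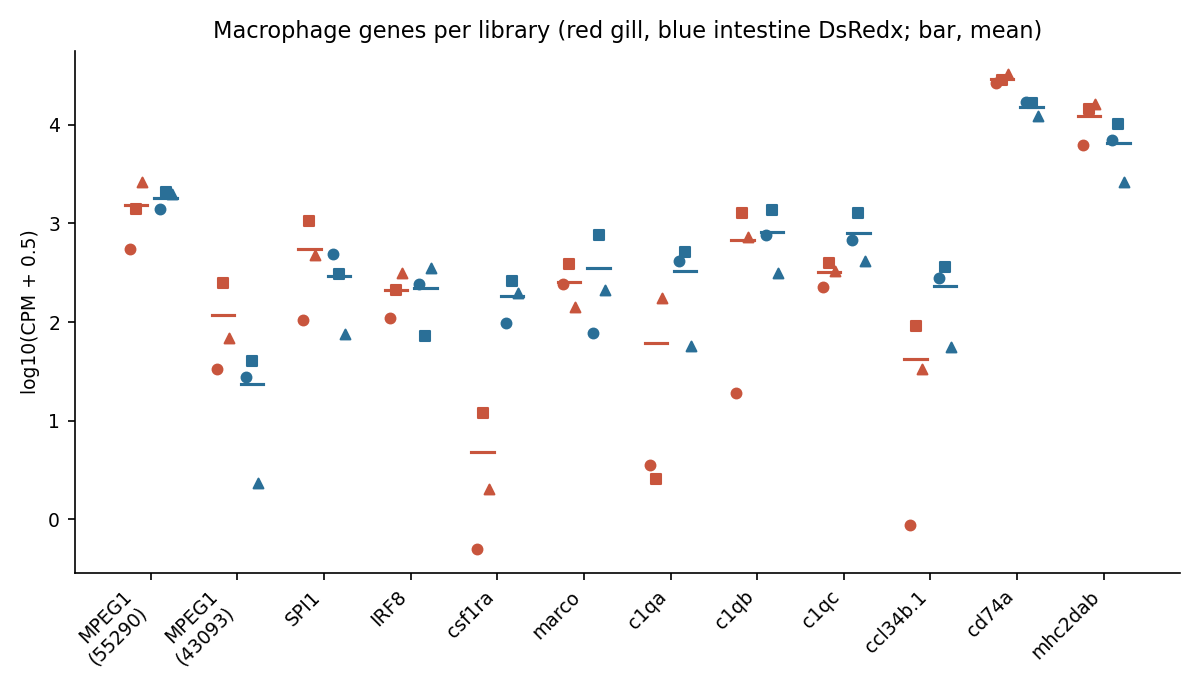
Level of 12 macrophage and antigen presentation genes in each gill (red) and intestine (blue) DsRedx library, as log10(CPM + 0.5), with the replicate given by marker shape (circle, square and triangle for 1, 2 and 3) and the group mean by a bar. None of the 12 genes was called; csf1ra, c1qc and cd74a have red and blue points without overlap, and the other genes overlap.

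Among cytokine and cytokine receptor genes a single receptor passed the test. Of 30 tested interleukin, TNF family and receptor genes, the receptor gene tnfrsf11a was the 1 called, and the median log2 fold change was 0.29. The TNF gene tnfa was read at 2829, 2179 and 506 CPM in gill and 311, 200.3 and 198 CPM in intestine, with no overlap but with gill DsRedx 3 far below the other two (log2 fold change 2.96, SE 1.0, adjusted p = 0.1534). The interleukin-12 chain gene il12bb, named after its values were seen like il12ba, stood at 1182, 2168 and 1664 CPM in gill and 597, 58.1 and 86.1 CPM in intestine (log2 fold change 2.76, SE 0.75, adjusted p = 0.09094). Its relative il12ba was read at 56.8, 36.2 and 65.1 CPM in gill and had 3 counts in intestine (adjusted p = 0.1317). Interleukin-1 beta (il1b) overlapped at 1005, 1242 and 671 CPM in gill and 334, 799 and 4676 CPM in intestine (adjusted p = 0.581), where intestine DsRedx 3 stood apart. The chemokine gene cxcl8a overlapped too (adjusted p = 0.492), with its highest value of 3719 CPM in intestine DsRedx 2.

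Of 24 tested chemokine and receptor genes, ccl20a.3 was the 1 called, and the list median was -0.31. Chemokine gene ccl34b.1 was read at 0.382, 90.8 and 33 CPM in gill and 277, 361 and 55.7 CPM in intestine (adjusted p = 0.3325), and ccl35.1 at 5088, 5380 and 6403 CPM and 4705, 2747 and 1489 CPM (adjusted p = 0.2087). Neither was called, and of this pair ccl35.1 had gill and intestine libraries without overlap. The receptor gene CCR9 (ENSDARG00000055186, 1 of 2 genes with that symbol), which in mammals guides lymphocytes to the gut, was high and overlapping in both tissues, at 2492, 5772 and 5022 CPM in gill and 3162, 2879 and 3496 CPM in intestine (adjusted p = 0.5921). The transcription factor gene RUNX3, shared by T cells and some myeloid cells, overlapped at 1585, 2673 and 1717 and 956, 928 and 2140 CPM (adjusted p = 0.6977). CCR9 and RUNX3 made up most of the summed T and NK cell markers, 5328 to 8773 CPM in gill and 4112 to 6856 CPM in intestine. The T cell kinase gene lck stood at 0.5736, 37.21 and 186 CPM in gill DsRedx 1, 2 and 3 and had no count in intestine. Other members lay higher in intestine libraries. The T cell co-receptor gene cd4-1 stood at 0.5736, 0.3478 and 19.18 CPM in gill and 3.308, 111.9 and 230.3 CPM in intestine, and the interleukin-7 receptor gene il7r had no count in gill against 27.43, 0.2655 and 148.5 CPM.

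Dendritic cell and mononuclear subset genes had the highest median of the 17 lists that do not mark another cell type. Of 19 tested genes, siglec15l was called, the median log2 fold change was 1.37, and 7 of its 15 kept genes had gill libraries above all intestine libraries, against 1 in the other direction. Over all 3945 kept genes the gill libraries lay above for 8.57% and the intestine libraries for 12.5%. In the NF-kB and inflammatory list, marcksl1b was the 1 gene called of 30, with a median of 0.60. The NF-kB inhibitor gene nfkbiab, which is itself induced by NF-kB, was read at 2463, 1853 and 2290 CPM in gill and 593, 1274 and 759.6 CPM in intestine without overlap (log2 fold change 1.33, SE 0.49, adjusted p = 0.1558). None of 32 interferon-stimulated genes was called, and their median was 0.68. In that list b2m, the light chain of MHC class I, stood at 2568, 5954 and 3232 CPM in gill and 2290, 2037 and 1329 CPM in intestine, without overlap (adjusted p = 0.2075). No gene of the 25 pattern recognition receptors was called either, with a median of 0.46.

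Over their tested genes, hypoxia and lipid genes had the lowest medians of the lists that do not mark another cell type. Of 33 tested oxygen and hypoxia genes, EPAS1 was called, the median was -0.78, and 8 of 20 kept genes had intestine libraries above all gill libraries, against 1 with the reverse, beside the 12.5% and 8.57% of all kept genes given above. The oxygen-sensing hydroxylase gene EGLN2 had no count in gill and 103, 21.5 and 79.6 CPM in intestine (adjusted p = 0.08689). The glycolytic gene GAPDHS was read at 617, 1003 and 449.6 CPM in gill and 2324, 3148 and 3568 CPM in intestine (log2 fold change -2.13, SE 0.57, adjusted p = 0.08974). Both were named after their values were seen and neither was called. Of 35 tested lipid genes 3 were called, all of them outside the kept genes, and the median was -0.86. Only 16 of the 35 were kept genes. The lipid list shares genes such as FABP2 and FABP6 with the enterocyte and goblet cell list, whose tested genes had a median of -7.76. The part of such genes in the lipid median was not tested. The lipid droplet gene PLIN2 stood at 39.2, 149 and 71.35 CPM in gill and 536, 585 and 1366 CPM in intestine, 9.57-fold apart (log2 fold change -3.26, SE 0.78, adjusted p = 0.0528). The fatty acid-binding protein gene fabp4a had 2 counts in gill and 164, 102 and 131 CPM in intestine (adjusted p = 0.08974). The apolipoprotein gene apoeb, a marker of many tissue macrophages, was no kept gene, with 0.382, 35.8 and 0.552 CPM in gill and no count in intestine (adjusted p = 0.1607).

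The remaining lists had 1 called kept gene or none. Heme and iron genes had a median of 0.48 over 21 tested genes with none called. The heme oxygenase gene HMOX1 was read at 725, 4797 and 3439 CPM in gill and 553, 897 and 246 CPM in intestine (log2 fold change 2.40, SE 0.72, adjusted p = 0.1174), where gill DsRedx 1 lay below intestine DsRedx 2. Retinoid and related genes (21 tested, median -0.10) had RBP2 called, and matrix and remodelling genes (25 tested, median 0.23) had spp1 called. Lysosome genes had a median of -0.27 over 61 tested genes, and 1 was called, grna.2, a progranulin gene that the share of the GFP mean set aside. The cathepsin gene ctsbb stood at 0.956, 3.3 and 0.138 CPM in gill and 101, 20.3 and 335 CPM in intestine (adjusted p = 0.05569). Immediate early and heat shock genes (51 tested, median -0.45) had no call, with the endoplasmic reticulum chaperone gene HSPA5 at 525, 521.5 and 136 CPM in gill and 1402, 1643 and 4117 CPM in intestine (adjusted p = 0.0505). In the same list the antiproliferative gene BTG1 was read at 2812, 2758 and 2528 CPM in gill and 969, 935 and 564 CPM in intestine, without overlap (log2 fold change 1.71, SE 0.47, adjusted p = 0.09496). The 28 cell cycle genes (median -0.01), 19 complement and engulfment genes (0.32) and 16 antigen presentation genes (0.32) had none called.

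**Figure D4:**
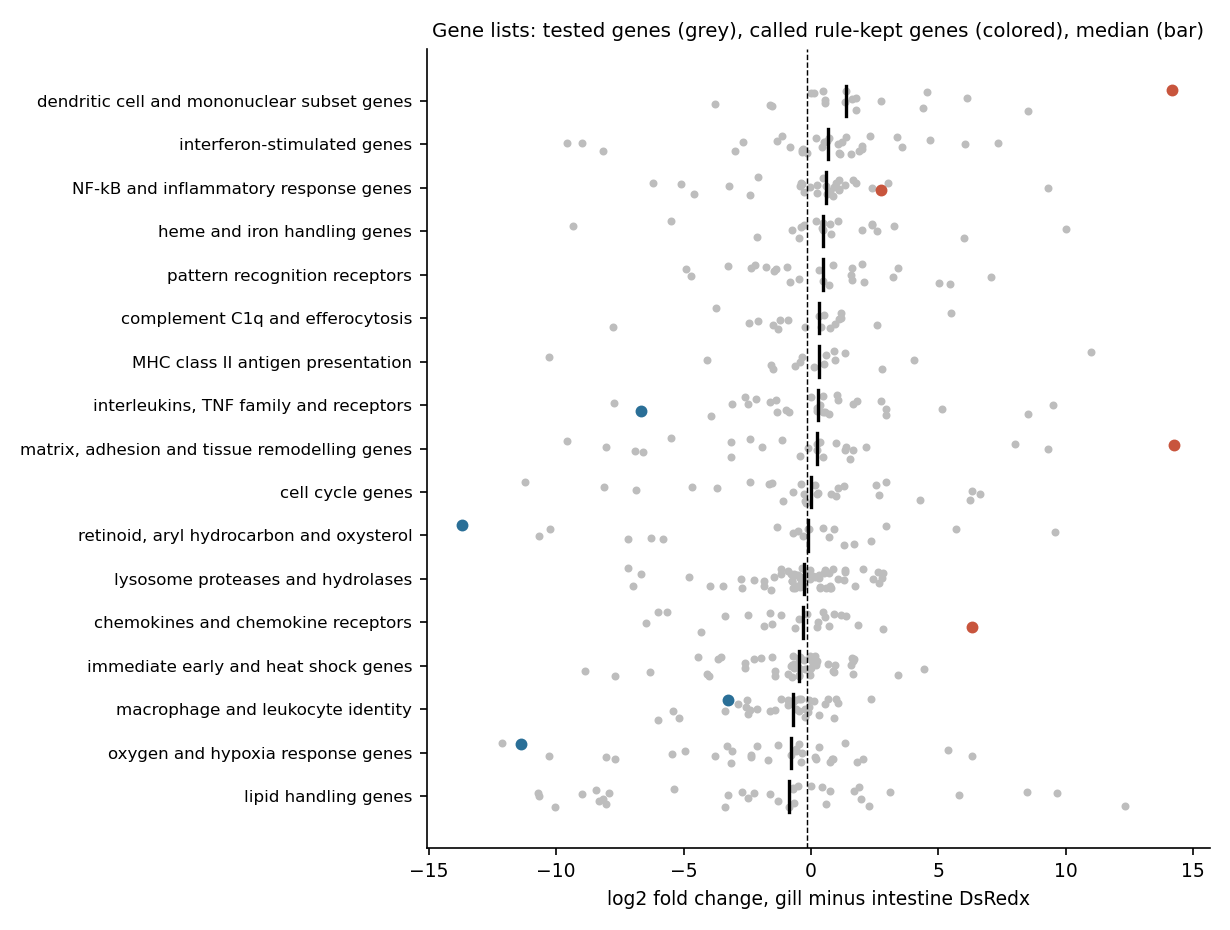
Log2 fold change, gill minus intestine DsRedx, of the tested genes of 17 gene lists (grey points, 1 per gene), with called kept genes in red (higher in gill) or blue (higher in intestine), the list median as a black bar and the median of all genes tested (-0.16) as a dashed line. The medians run from -0.86 for lipid handling to 1.37 for dendritic and mononuclear subset genes, and each list has at most 1 colored point.

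GFP cells gave a reference for how far a tissue difference was shared by the other mpeg1-expressing population. Between gill GFP and intestine GFP cells 217 genes were called (2.03% of those tested), 75 of them higher in gill (0.703%) and 142 higher in intestine (1.33%), and the difference of the 2 tissue contrasts was called for 16 genes (0.15%), 15 of them kept genes. Of the 43 genes called in DsRedx cells, 4 were among the 16, namely AQP3, pleca, MYH9 and degs1. The tissue gap of AQP3 was wider in DsRedx cells, with log2 fold changes of 8.93 in DsRedx and 1.69 in GFP cells (log2 difference 7.24, SE 1.35, adjusted p = 0.03476). For pleca the tissue contrast was 5.19 in DsRedx and 0.10 in GFP cells (log2 difference 5.09, SE 1.01, adjusted p = 0.04448). MYH9 had a tissue contrast of -5.48 against 0.81 in GFP cells (log2 difference -6.29, SE 1.15, adjusted p = 0.03476), and degs1 stood at -4.78 against 1.57 (log2 difference -6.35, SE 1.27, adjusted p = 0.04448).

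HMOX1 had opposite signs, with a log2 fold change of 2.40 in DsRedx and -3.49 in GFP cells (log2 difference 5.89, SE 1.04, adjusted p = 0.03476). The chemokine receptor gene CXCR4 (ENSDARG00000041959) stood at -0.47 in DsRedx and 3.74 in GFP cells, and the protein kinase C gene PRKCB at -1.35 and 8.14. The peptidase gene ace, which processes angiotensin in mammals, had values of 0.95 in DsRedx and -12.71 in GFP cells. The DsRedx value of ace rests on gill DsRedx 3, as the gill libraries held 0.1912, 0.1739 and 159.7 CPM. Its intestine DsRedx libraries held 49.34, 20.44 and 12.85 CPM, against an intestine GFP mean of 1240 CPM. The adjusted p of the difference was 0.03476 for CXCR4, PRKCB and ace. For these and for shtn2, ANXA4, marcksl1a, ptprh and ZDHHC18 the larger tissue difference lay in the GFP cells. Some of the called genes named above had a similar contrast in both populations. For lgals3bp.1 it was -3.24 in DsRedx and -3.51 in GFP cells, and their difference was not called (adjusted p = 0.976). GFP cells carried little lgals3bp.1, at means of 1.716 CPM in gill and 19.74 CPM in intestine. The DsRedx means were 401.3 and 3804 CPM, and the part of DsRedx RNA in that GFP contrast was not tested. In DsRedx and then GFP cells the contrasts were -12.46 and -12.38 for cox4i1l, -10.5 and -12.67 for CTTN, and -13.68 and -11.93 for RBP2. For ccl20a.3 they were 6.31 and 5.45. Each of these genes was also called between gill GFP and intestine GFP cells, and for none was the difference called. For cox4i1l and RBP2 the test of the difference could not decide, since neither gill group had a count. Its SE was 177.55 log2 units for cox4i1l and 3087.66 for RBP2, and their contrasts give the direction only. CTTN had 1 count in gill DsRedx and none in gill GFP libraries, so the size of its contrasts is uncertain too. The fit without 1 library in turn called 1 to 17 genes for this difference, fewest without gill GFP replicate 3 and without intestine GFP replicate 2.

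Some genes that are high in the GFP cells were read at low levels in the DsRedx libraries. Others were high in both, such as CCR9 (ENSDARG00000055186), with means of 4568 CPM in gill GFP and 4429 CPM in gill DsRedx cells. For several of the 18 called genes that were set aside, the DsRedx level was close to 1% of the GFP mean of the tissue in every library. The claudin gene cldn3c, a metaphocyte marker, stood at 0.85 to 1.11% of the gill GFP mean in the 3 gill DsRedx libraries. The enterocyte gene TM4SF4 stood at 1.06 to 1.18% of the intestine GFP mean in the 3 intestine DsRedx libraries. Others had a wider range, such as FABP2 at 1.57 to 15.7%. No tested gene of the metaphocyte list was a kept gene. Of the 43 called genes, RBP2 is the only one on a marker list of another cell type.

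Other marker groups were checked in the same way. Summed B cell markers were 1248 to 1938 CPM in gill and 2024 to 3288 CPM in intestine, without overlap, and came mostly from XBP1 and PRDM1, genes that macrophages also express. Neutrophil and granulocyte markers (1040 to 4413 CPM in gill, 1185 to 2304 CPM in intestine) overlapped. NCF1, a subunit gene of the phagocyte oxidase, was their largest member except in intestine DsRedx 1, where it stood at 339 CPM and s100a10b at 384.8 CPM. Erythrocyte and thrombocyte markers came mostly from PLEK, a gene of platelets and leukocytes, except in intestine DsRedx 3, where CREG1 at 70.67 CPM was above PLEK at 62.27 CPM. The defining markers of acinar cells prss59.1, ctrb.2 and ctrl had no count in any DsRedx library. The part of these cells in the gene differences was not tested.

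**Figure D5:**
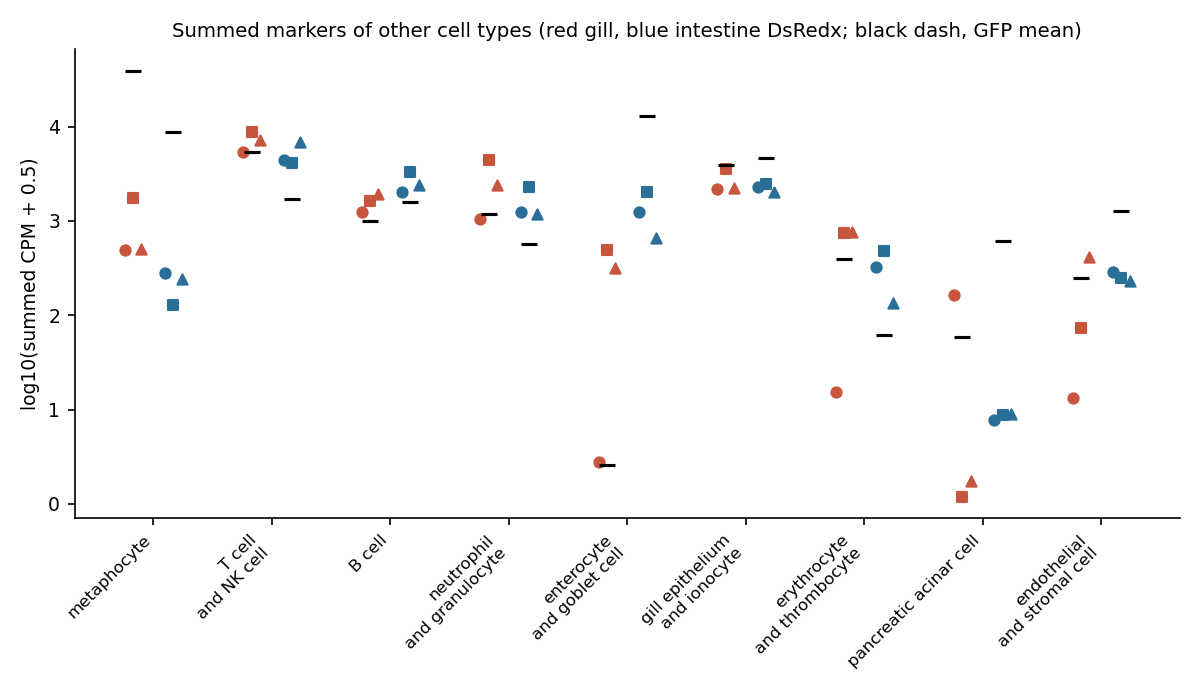
Summed level of the markers of 9 other cell types in each gill (red) and intestine (blue) DsRedx library, as log10(summed CPM + 0.5), with the replicate given by marker shape and the mean of the GFP cells of the same tissue as a black dash. Metaphocyte sums are higher in gill, enterocyte and goblet cell sums and B cell sums are higher in intestine, and the other groups overlap.

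Genes near the limits of the rule show how it cut. By the share of the GFP mean, CTTN (7.6% in its lowest library) and rab11fip1b (12%) were the called genes just inside, and TARBP2 (3.38%) and RHOV (3.02%) were the called genes just outside. By level, arf4b was just inside at a mean of 28.82 CPM and tfpil just outside at 18.57 CPM. A stricter share of 20% kept 37 called genes and a looser one of 2% kept 48.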

How the data were processed

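The count table was deposited by the authors as whole-number counts per Ensembl gene for 12 libraries, and the TPM table deposited by the authors was used for alternatives only. STAR, featureCounts and the danRer11 build are named in the submitters' processing notes, without versions. The sources used here state neither strandedness nor how reads matching several genes were treated. Symbols from the supplied name table matched 29201 of 32520 identifiers, and 6314 carried a shared symbol.

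Genes were filtered with filterByExpr over 4 groups, libraries were scaled by TMM, and 1 mean per group was fitted to all 12 libraries (8 residual degrees of freedom) with edgeR 4.0.16 in R 4.3.3. The quasi-likelihood F test gave p-values, adjusted by Benjamini-Hochberg over all genes tested and called under 0.05. The standard error of a log2 fold change was its size divided by the square root of F. CPM used TMM-adjusted library sizes. The procedure was also run on simulated counts with planted changes. The outcome of that run is not reported here, and no result above rests on it. Where the lower group had no count, a fold is a bound against 3 counts for that group as a whole, and at 1 to 3 counts a ratio is given with its exact 95% interval. Alternatives used DESeq2 1.42.0, limma 3.58.1 on log2(TPM + 1 or 0.1), other scalings and filters, and left-out libraries.

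The kept genes, gene lists and marker lists were chosen with earlier results of these data known. Text names came from a rule: up to 12 called kept genes per direction with the largest fold, no overlap of libraries and at least 50 CPM, up to 4 called genes per list or else the 2 of highest mean CPM, and a fixed set of macrophage genes. The other called kept genes and the uncalled genes mafbb, BHLHE40, il12ba, il12bb, ccl35.1, nfkbiab, EGLN2, GAPDHS, PLIN2, fabp4a, ctsbb, HSPA5 and BTG1 were added after their values were seen. Genes called for the difference between DsRedx and GFP cells were also named after their values were seen. Promoter and protein sequences were not used here.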

Additional observations from a re-analysis of the deposited data

Results flagged for a closer look

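In 16 genes the tissue difference of DsRedx cells differed from that of GFP cells by edgeR's quasi-likelihood test of the difference itself. Of these, 5 were among the genes followed one by one. Those followed were the genes named by the rule, the called kept genes and the kept genes of lowest p in each list. The difference of the log2 fold changes was 7.24 for AQP3 (ENSDARG00000003808, adjusted p = 0.03476), 5.09 for pleca (adjusted p = 0.04448) and 5.89 for HMOX1 (adjusted p = 0.03476), all toward gill in DsRedx cells. It was -6.29 for MYH9 (ENSDARG00000063295, adjusted p = 0.03476) and -6.35 for degs1 (adjusted p = 0.04448), toward intestine in DsRedx cells.

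In 4 further genes among those followed, all DsRedx libraries differed between the tissues in 1 direction and all GFP libraries in the other. For these the test of the difference was not past the threshold. The difference was -8.78 for tnfrsf11a (adjusted p = 0.07899), -3.21 for LGMN (adjusted p = 0.08071), -6.31 for LPAR6 (ENSDARG00000062552, adjusted p = 0.0629) and 1.94 for ccl35.1 (adjusted p = 0.1782). For LGMN the log2 fold change of gill over intestine was -1.58 in DsRedx cells (adjusted p = 0.141) and 1.63 in GFP cells (adjusted p = 0.1055), and neither passed the test.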

How the results depend on the processing

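Counts are given as all genes called between gill and intestine DsRedx cells, kept genes among them, and genes called for the difference between DsRedx and GFP cells, which were 81, 43 and 16. RLE scaling gave 49 (21 higher in gill, 28 in intestine), 21 and 9 and moved the median log2 fold change by 0.29, upper-quartile scaling moved it by 0.12 and split its 84 genes into 31 and 53, and no filter gave 267, 142 and 107. The number of genes with a count as a covariate gave 3, 1 and 2. The 6 DsRedx libraries alone called 14 kept genes, and 0 genes and 0 kept genes when the same genes were tested (1840 and 451 at an unadjusted p under 0.05), an alternative chosen after seeing the data. DESeq2 gave 1639, 558 and 834. limma gave 93 kept genes and 316 differences with log2(TPM + 1), 92 and 269 with a TPM filter, and 153, 120 and 0 (1250 at an unadjusted p under 0.05) with log2(TPM + 0.1). Leaving out 1 library at a time gave 35 to 83, 16 to 44 and 1 to 17. Correlations of deviations between same-numbered gill and intestine DsRedx libraries were -0.0148, 0.015 and -0.0344. With so wide a spread they cannot tell whether such libraries share a fish, which the labels do not state. The replicate block gave 75, 36 and 23. Other thresholds of the rule left 37 to 48 called kept genes, and a rule that also uses the highest library, added after seeing the data, left 38.

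None of the 43 called kept genes changed direction under any alternative run, and the other called genes were not followed one by one. The gill and intestine libraries of the 43 genes did not overlap, so most alternatives had little room to reverse them. Uncalled log2 fold changes that changed sign were as follows, with the cause not tested. RLE scaling and DESeq2 gave 0.14 for c1qb and 0.17 for IRF8, and upper-quartile scaling 0.02 for IRF8. The replicate block gave 0.55 for JUN, -1.17 for MCM7, 0.41 for IRF8 and 0.04 for il1b. The covariate gave -0.04 for IRAK3, -0.12 for cd74b and SPI1, -1.06 for FABP7, -0.21 for fthl27, -1.02 for fth1a, 2.37 for IRF8 and -0.19 for CCR9. On TPM, JUN was 0.25, fth1a -0.02, hmgb2b 0.11 and MCM7 -2.42 or -3.06. With 1 library left out in turn, the ranges were -1.1 to 0.32 for c1qb, -0.73 to 1.59 for JUN, -0.55 to 1.09 for FABP7, -0.28 to 0.54 for fth1a, -0.74 to 0.52 for hmgb2b, -5.2 to 1.03 for MCM7 and -0.83 to 0.18 for MPEG1 (ENSDARG00000055290). They were 0 to 1.56 for SPI1, -0.49 to 0.46 for IRF8, -0.88 to 0.81 for marco, -1.7 to 1.07 for cxcl8a and -1.48 to 0.85 for il1b.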
